A study of Homo sapiens with 6 samples.

Results

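The scramble-treated control cells of this series are NCI-H929, an established human multiple myeloma line, 24 h after electroporation with a non-targeting siRNA. They were taken by their sample titles and make up 2 of the 6 microarrays, named here replicate 1 and replicate 2. The other 4 arrays, from cells given siRNA against RRM1 or RRM2, were not used, and no contrast between groups was made. The cells are 1 line that had been electroporated, so the values describe the control state of the experiment and not untouched cells. The labels do not say whether the replicates came from separate cultures, so the spread between them may be technical.

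Myeloma is a tumour of plasma cells, the antibody-secreting end stage of the B lineage. During that step the transcription factors IRF4, PRDM1 and XBP1 replace the B cell programme led by PAX5, and the endoplasmic reticulum (ER) expands to fold and export immunoglobulin. NCI-H929 is known as an IgA kappa line with a translocation that joins the immunoglobulin heavy chain locus to the region of NSD2, a histone methyltransferase, and FGFR3, a receptor tyrosine kinase.

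Each array gave a deposited log2 signal for 22277 probe sets, which are groups of short probes against a transcript. The values ran from 2.49 to 14.42, with medians of 6.11 on both arrays. A probe set's signal depends on its own affinity as well as on its transcript. Ranks below are therefore ranks of probe set signal, and an order of transcript numbers between genes cannot be read from them. Each of 11963 genes was represented by its probe set with the highest mean.

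No detection call was among the values used, so a background line was drawn from 112 measured genes of other organs, such as albumin and rhodopsin. Their probe sets, 168 in number, had a median of 4.34, against 6.11 over all probe sets. The line is the 95th percentile of those probe sets on each array, 6.12 on replicate 1 and 6.15 on replicate 2. By this line 6614 genes were above background on both arrays (55.3% of genes), 5108 were at or under it on both (42.7%) and 241 were split. A gene at or under the line is not distinguished from background, which is not proof of absence. Of the genes above it, 1449 (12.1% of all genes) were in the top 10% of probe sets, from a log2 signal of 10.03. Another 1304 were weak, less than 1 log2 unit over the line, and 3861 lay between.

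**Figure D1:**
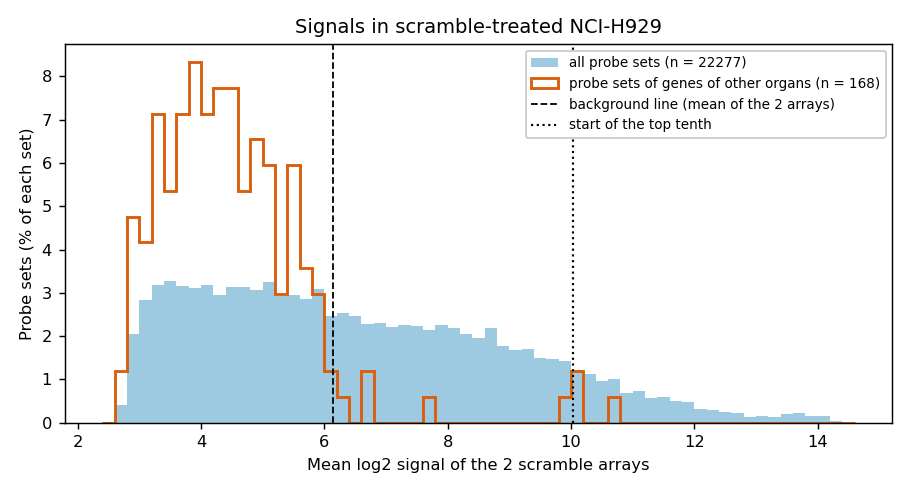
Distribution of the mean log2 signal of the 2 scramble arrays (x axis) as a percentage of probe sets (y axis), for all 22277 probe sets and for the 168 probe sets of genes of other organs. The outlined set centres on 4.34, left of the dashed background line at 6.13, and the dotted line at 10.03 marks the start of the top 10%.

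The lines do not separate close neighbours. By their means, just under the background line were TNS4 (6.22 and 6.05 on replicates 1 and 2), CYP3A4 (6.09 and 6.17) and DHX9-AS1 (6.32 and 5.95). Just over it were CENPI (6.12 and 6.14), ZER1 (6.21 and 6.05) and CC2D1A (6.13 and 6.14), and all 6 were split between the arrays. At the edge of the top 10%, ASPM (mean 10.03), PPT1 (10.03) and IPO5 (10.03) were just outside, and PREB (10.03), SNAPC5 (10.03) and LGALS3 (10.03) just inside.

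The replicates lay close together. Across probe sets, which are not independent replicates, they correlated at r = 0.997, and 97.8% of probe sets differed by no more than 0.5 log2 units. The standard deviation (SD) of the difference was 0.20 over all probe sets. It was widest, 0.24, for means from 5.42 to 6.11, just under the background line, and narrowest among the lowest and the highest 10% of probe sets (0.15 in each).

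The 5 genes given as markers of this line were all above background on both arrays. XBP1, the factor that drives ER expansion, had the highest signal, 12.80 on replicate 1 and 12.73 on replicate 2 (mean 12.76 ± 0.05, SD, n = 2), and 98.7% of all probe sets had a lower mean. IRF4, on which myeloma cells are known to depend, gave 11.38 and 11.04 (11.21 ± 0.24). SDC1, which encodes the plasma cell surface proteoglycan syndecan-1 (CD138), gave 11.20 and 11.36 (11.28 ± 0.11). NSD2 gave 10.67 and 10.73 (10.70 ± 0.04). These 4 were in the top 10%. FGFR3 gave 9.32 and 9.53 (9.43 ± 0.15), which is 3.30 log2 units over the line and outside the top 10%, at the 85.6th percentile.

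Other probe sets of the same marker genes gave lower signals. IRF4 had another probe set at 7.93 and 7.69 and one at background (3.14 and 3.11). The other FGFR3 probe set was at background as well (4.75 and 4.64). The other probe set of SDC1 (9.78 and 9.95) and those of NSD2 (10.22 and 10.28, and 8.16 and 8.12) were above it. XBP1 had 1 probe set only.

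Among transcription factors of plasma cells, 12 of 13 measured were above background (92.3%, against 55.3% of all genes). In the top 10% were 5 (38.5%, against 12.1% of all genes). Beside XBP1 and IRF4 these were MEF2C (12.40 and 12.38), POU2AF1, the coactivator OCA-B of octamer factors (12.21 on both arrays), and FOXO3 (10.41 and 10.12). PRDM1, which encodes BLIMP-1, the repressor of the B cell programme, gave 8.98 and 9.08. The elongation factor ELL2, which favours the secreted form of the heavy chain, gave 9.08 and 9.10. IKZF1 (9.06 and 8.98) and IKZF3 (7.90 and 8.26), the Ikaros and Aiolos factors degraded under lenalidomide, were in the middle band, as were MYC (8.89 and 8.82) and ZNF215 (7.67 and 7.54). KLF2 was weak (6.77 and 7.09), and ZBTB20 was at background (5.09 and 4.98).

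The B cell programme showed the reverse in its counts, though the members of both lists were chosen with earlier results of these data known. The contrast therefore depends in part on the list a gene was placed in. Of 27 measured B cell genes 3 were above background, 0 of them in the top 10%, and 23 were at or under the line. The 3 were the kinase LYN (9.23 and 9.19), SWAP70 (7.39 and 7.37) and CD79B, a chain of the B cell receptor (7.20 and 7.49). The repressor BACH2 was split between the arrays (6.41 and 5.82). PAX5, the factor that maintains B cell identity, gave 4.73 and 4.91, and MS4A1, which encodes CD20, gave 4.45 and 4.67; these, BACH2 and CD79A (5.10 and 5.23) were chosen for mention after their values were seen. The lowest were BANK1 (3.96 and 3.55), RAG1 (3.72 and 3.71) and the complement receptor CR2 (3.50 and 3.71).

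MHC class II, which presents antigen on B cells, was mostly at background. Of 17 measured genes 4 were above it, and none of these encodes a class II chain. They were the protease LGMN (10.16 and 10.44), the promoter factors RFX5 (9.89 and 9.93) and RFXANK (8.27 and 8.29), and the protease CTSS (8.53 and 8.63). The master regulator CIITA gave 5.03 and 5.08. The invariant chain CD74 gave 4.42 and 4.34, and HLA-DRA gave 4.22 and 4.18. HLA-DOA was split (5.98 and 6.23). The others, at or under the line, were HLA-DQB1 (mean 5.97), RFXAP (5.88), HLA-DMB (5.87), HLA-DOB (5.79), HLA-DPB1 (4.98), HLA-DRB1 (4.81), HLA-DPA1 (4.81), HLA-DQA1 (4.69) and HLA-DMA (4.22).

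MHC class I, by contrast, was above background in all 16 measured genes, with 8 in the top 10%. The shared light chain B2M gave 13.50 and 13.41. The heavy chain genes HLA-C (12.13 and 12.28), HLA-E (11.82 and 11.90), HLA-B (11.55 and 11.76) and HLA-G (10.64 and 10.79) were also in the top 10%, though these near-identical genes may share probes. So were the loading chaperones PDIA3 (mean 11.71) and CALR (10.77) and the immunoproteasome subunit PSMB10 (10.29). HLA-F (9.97), PSMB8 (9.50), ERAP1 (9.39), PSMB9 (9.28), the peptide transporter genes TAP1 (8.43) and TAP2 (7.99) and their partner TAPBP (8.34) lay in the middle band, and MR1 was weak (6.80).

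Surface antigens of plasma cells, several of them targets of myeloma therapy, were above background in 18 of 28 genes (64.3%, against 55.3% of all). Of these, 8 were in the top 10% (28.6%, against 12.1% of all genes). TNFRSF17, which encodes BCMA, gave 13.30 and 13.13. The integrin chain ITGB7 gave 13.02 and 13.04, and CD48 gave 12.75 and 12.74. Members chosen after their values were seen were CD38 (9.32 and 9.39), SLAMF7 (9.07 and 8.98), GPRC5D (8.20 and 8.48) and NCAM1, which encodes CD56 (8.11 and 8.03), all in the middle band. TNFRSF13B, the BCMA relative TACI, was at background (5.87 and 6.06), as was CD27 (4.68 and 4.91), both also chosen after their values were seen. The lowest were KIT (3.91 and 4.21), SLAMF1 (3.51 and 3.75) and CD69 (2.97 and 2.94).

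**Figure D2:**
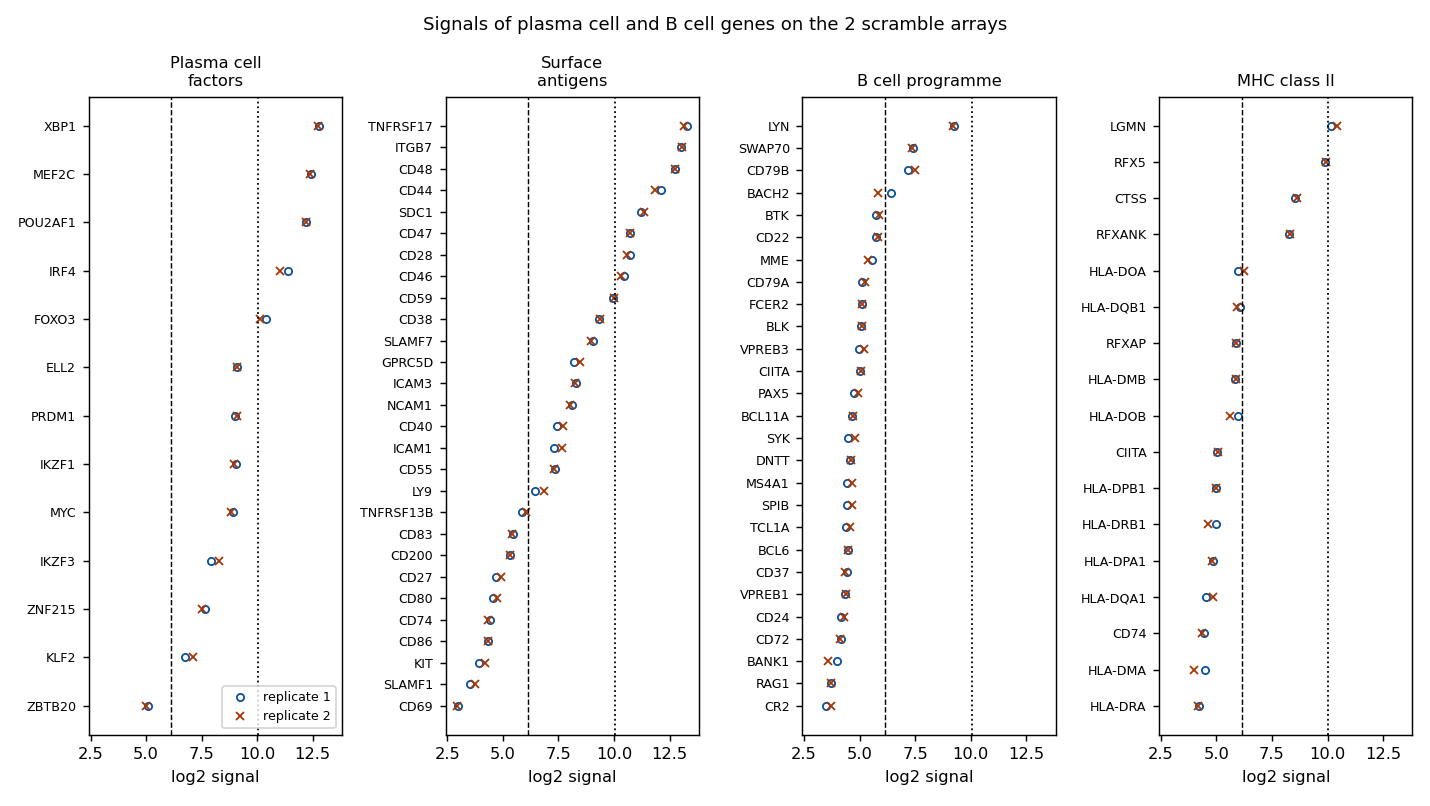
Log2 signal (x axis) of each measured gene (y axis) on replicate 1 (circles) and replicate 2 (crosses) for plasma cell transcription factors, surface antigens, the B cell programme and MHC class II; the dashed line is background (6.13) and the dotted line the start of the top 10% (10.03). XBP1, MEF2C, POU2AF1, IRF4 and FOXO3 lie right of the dotted line, whereas 23 of 27 B cell genes lie left of the dashed one on both arrays.

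Immunoglobulin probe sets were few with a single gene name, 13 genes in all with J chain. Of these, 7 were above background (53.8%, against 55.3% of all genes). IGKC, the kappa constant region, gave 13.47 and 13.52. JCHAIN, the joining chain of polymeric IgA and IgM, gave 13.66 and 13.28. IGLC1, a lambda constant region, gave 12.57 and 12.46, and IGLV1-44 gave 11.60 and 11.45. All of these but JCHAIN were read by probe sets with an _x_at name, which mark probes that can bind other sequences. The part of such binding in these signals was not tested. The means of other IGLC1 probe sets ranged down to 3.14, and those of other IGKC probe sets from 8.03 down to 4.40.

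Among the remaining immunoglobulin genes, an orphan kappa variable gene was in the middle band (7.19 and 7.44), and IGHM (6.48 and 6.75) and IGLL1 (6.14 and 6.21) were weak. IGHD (5.76 and 5.95), IGHG1 (5.74 and 5.91), IGLL5 (4.80 and 5.14), IGLV6-57 (4.05 and 4.22), IGHV3-75 (3.57 and 3.56) and IGHV5-78 (3.17 and 3.16) were at background. The heavy chain constant genes with a single name, IGHM, IGHD and IGHG1, were thus weak or at background. The alpha constant region was not analysed here.

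The secretory machinery stood high. Of 28 ER chaperones and unfolded protein response genes, 26 were above background and 20 were in the top 10% (71.4%, where 12.1% of all genes were). PPIB, a prolyl isomerase of the ER, gave 12.97 and 12.95, and the lectin chaperone CANX gave 12.59 and 12.73. HSPA5, the ER chaperone BiP, gave 12.60 and 12.58, and EIF2AK3, the stress kinase PERK, gave 11.66 and 11.29; both were chosen after their values were seen. The stress factor DDIT3 (CHOP) was weak (6.90 and 7.17). ERN1, which encodes the IRE1 kinase that splices XBP1 mRNA, was at background (5.40 and 5.53), and so was the oxidase ERO1B (4.94 and 5.01).

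Of 47 genes of the translocon, signal peptidase and ER to Golgi transport, 46 were above background and 37 were in the top 10%. The signal peptidase subunit SPCS1 gave 13.32 and 13.31. RPN2, a subunit of the oligosaccharyltransferase, gave 12.93 and 13.05, and SSR2, a translocon-associated protein, gave 12.98 on both arrays. At the other end were SEC24C (8.73 and 8.79), ARF5 (8.73 and 8.70) and KDELR3 (5.35 and 5.90), of which only KDELR3, a receptor that returns ER proteins, was at background.

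An ER stress response element, the known binding site of ATF6 with the CCAAT factor NF-Y, has the letters CCAAT and CCACG with any 9 bases between them. Promoters from RefSeq (GRCh38.p14, 250 bases before to 50 after each gene's start) were found for 9562 of the 11963 genes. On either strand these letters occurred in 22 of all 27305 promoters in the table (0.0806%), 12 of them of measured genes. They occurred in 7 of the 26 matched ER chaperone genes (26.9%). The element is named for the kind of gene this list collects, so its share there is background and not a result of these arrays. The stretches of the 7 genes follow because they include several of the ER genes with the highest signals, with 1 gene at background beside them. All lie upstream of the start and are written 5′ to 3′ on the gene's strand. Capitals mark the outer letters of each match, CCAAT and CCACG, or their reverse complements CGTGG and ATTGG.
XBP1 (chr22:28800597-28800627, minus strand): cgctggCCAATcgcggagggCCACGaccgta
CANX (chr5:179698772-179698802, plus strand): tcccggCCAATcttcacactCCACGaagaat
HSPA5 (chr9:125241385-125241415, minus strand): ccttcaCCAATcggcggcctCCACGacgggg
HSP90B1 (chr12:103930210-103930345, plus strand): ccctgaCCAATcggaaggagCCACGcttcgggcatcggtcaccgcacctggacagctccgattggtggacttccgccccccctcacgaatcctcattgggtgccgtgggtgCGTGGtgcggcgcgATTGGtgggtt
CALR (chr19:12938378-12938408, plus strand): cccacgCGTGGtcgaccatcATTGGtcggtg
CRELD2 (chr22:49918548-49918578, plus strand): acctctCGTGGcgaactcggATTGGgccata
ERO1B (chr1:236282177-236282207, minus strand): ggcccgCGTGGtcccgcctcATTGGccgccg

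Of these 7 genes, 6 were in the top 10%, on a list with 20 of 28 genes there. The 6 were XBP1, CANX and HSPA5 as above, HSP90B1, the ER form of HSP90 (11.58 and 11.13), CALR (10.82 and 10.73) and CRELD2 (10.13 and 10.01). ERO1B carried the same letters and was at background. Outside the ER list, 5 measured genes had these letters, and 1 of the 5 was in the top 10%. SERP1, which stabilises membrane proteins during ER stress, was in the top 10% (12.30 and 12.37) and FICD, which modifies BiP, was in the middle band (7.43 and 7.21). TRIM5 was split (6.21 and 6.14), and ALG12 (5.82 and 5.55) and GLRA2 (4.58 and 4.84) were at background. A match of letters is a description of the sequence and not evidence of binding.

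Ribosomal protein genes filled the head of the ranking. Of the 25 genes with the highest mean, 22 encode cytosolic ribosomal proteins. They ran from RPL41 (14.39 and 14.42) through RPL23A (mean 14.28), RPS18 (14.24), RPLP1 (14.21), RPL37A (14.19), RPS27 (14.18), RPS19 (14.14), RPS23 (14.11), RPS10 (14.06), RPL7 (14.05), RPS15 (14.03), RPS14 (14.03), RPS28 (14.02), RPS21 (14.01), RPS6 (13.99), RPS15A (13.95), RPL37 (13.94), RPS24 (13.92), RPS12 (13.91), RPL31 (13.89) and RPL30 (13.87) to RPS16 (13.87). The other members of the 25 were EEF1A1, which delivers aminoacyl-tRNA to the ribosome (14.37 and 14.41), FTL, the ferritin light chain (14.14 and 14.12), and the poly(A) binding protein PABPC1 (14.03 and 14.01). Of these 25, 24 were read by probe sets with names in _x_at or _s_at, which can bind several transcripts.

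In all, 56 of 57 genes with cytosolic ribosomal protein symbols were above background and 52 were in the top 10%. The exceptions included paralogs of restricted use, RPL39L (7.17 and 7.46, middle band) and the muscle form RPL3L (4.64 and 4.54, background), and also RPLP2, an acidic stalk protein, whose probe set was weak (6.60 and 7.25). Of 45 translation factor symbols 44 were above background, with EEF2 at 13.75 and 13.68. The lowest were methyltransferases whose symbols the pattern took in, EEF1AKMT3 (6.53 and 6.49), EEF2KMT (6.42 and 6.16) and EEF1AKMT2 (5.51 and 5.84).

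Mitochondrial and proteasome genes followed. Of 78 oxidative phosphorylation symbols 72 were above background and 68 were in the top 10%. The ATP synthase subunit ATP5F1A gave 13.53 and 13.52, and the cytochrome oxidase subunits COX6C (13.53 and 13.34) and COX7C (13.42 and 13.39) were next. The muscle and heart isoforms COX6A2 (4.88 and 5.11) and COX7A1 (4.23 and 4.57) were at background, as was the assembly factor NDUFAF5 (3.66 and 3.78). Of 51 mitochondrial ribosomal proteins 48 were above background, led by MRPL3 (11.93 and 11.87), MRPL9 (11.63 and 11.61) and MRPL20 (11.57 and 11.49). MRPL52 was split (6.09 and 6.56), and MRPL41 (5.78 and 5.82) and MRPS18C (4.61 and 4.75) were at background.

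The proteasome, the target of bortezomib, was above background in all 41 symbols, with 30 in the top 10%. PSMB4 gave 12.85 and 12.79, PSMA2 12.05 and 11.92, and PSMA7 a mean of 11.99. The lowest were PSMD5 (8.32 and 8.40) and the interacting proteins PSMC3IP (7.89 and 7.95) and PSME3IP1 (7.63 and 7.67), which are not subunits. Of 24 glycolysis genes 18 were above background and 11 were in the top 10%. GAPDH gave 13.66 and 13.65, LDHA 13.46 and 13.65, and PGK1 12.85 and 13.12. The lowest of the 4 at background were PKLR, the liver and red cell pyruvate kinase (5.12 and 5.18), the glucose transporter SLC2A3 (5.06 and 5.07) and PGAM2 (4.60 and 4.66).

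**Figure D3:**
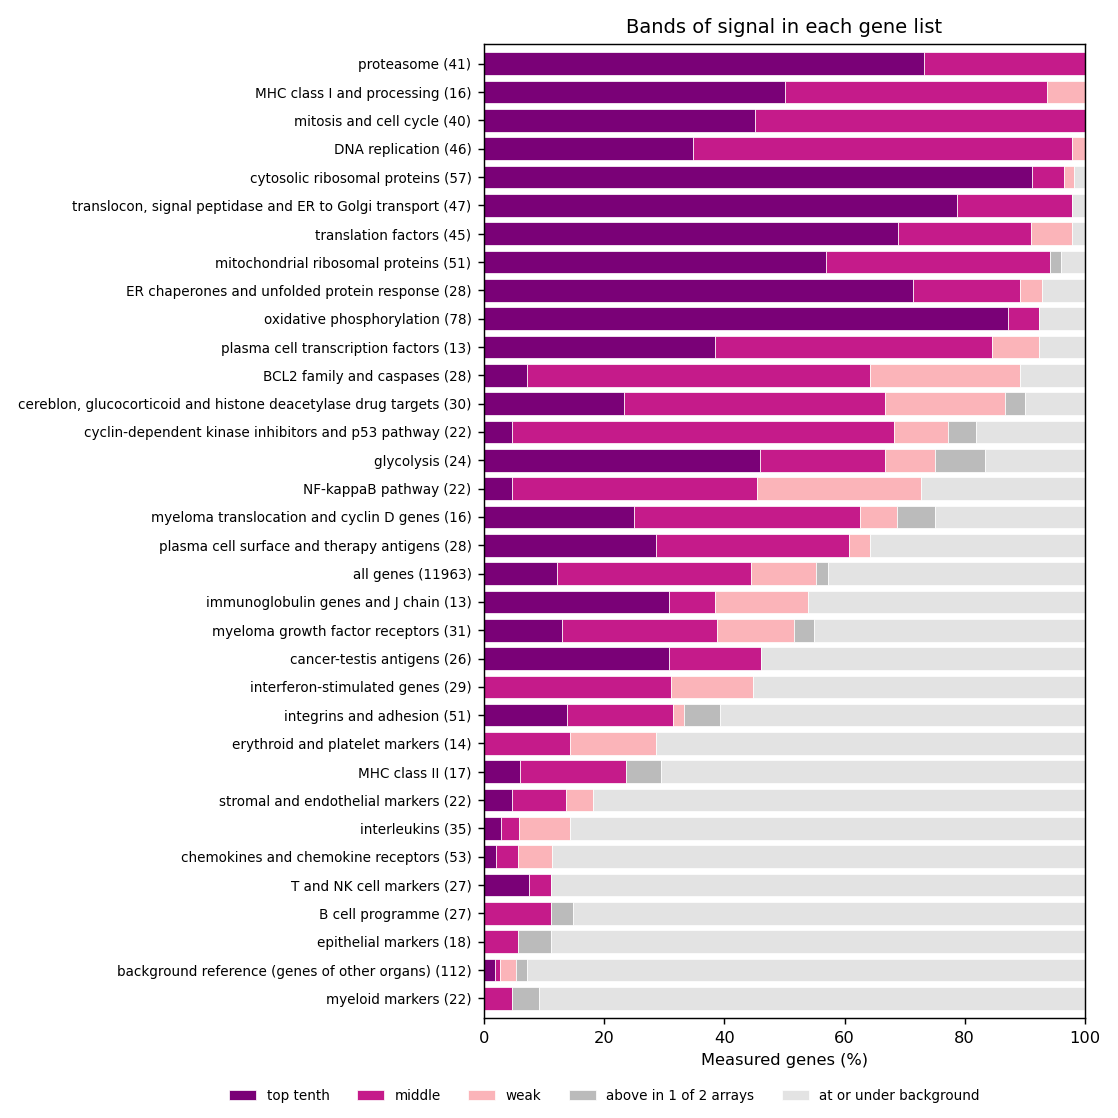
Share of measured genes (x axis, percent) in each signal band for every gene list and for all genes (y axis, number measured in brackets), ordered by the share above background. Proteasome, MHC class I, mitosis and replication lists lie entirely above background, all genes are at 55.3%, and the lists of other cell types and the B cell programme lie at the foot.

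Genes of the cell cycle were measured above background throughout. All 40 mitosis and cell cycle genes were, 18 of them in the top 10%, led by the ubiquitin-conjugating enzyme UBE2C (11.88 and 12.02), CKS1B (11.70 and 11.75) and BUB3 (11.69 and 11.74). The lowest were CDC25C (7.62 and 7.95), CDK6 (7.78 and 7.56) and PLK1 (7.30 and 7.63). All 46 DNA replication genes were above background as well, 16 of them in the top 10%. RRM2, the small subunit of ribonucleotide reductase, gave 12.78 on both arrays, followed by thymidylate synthase TYMS (12.08 and 12.07) and the flap nuclease FEN1 (11.76 and 11.81). At the foot were the polymerase subunits POLD1 (7.58 and 7.54) and POLE (7.31 and 7.23) and PRIM2, a primase subunit (7.07 and 7.18).

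Of 22 cyclin-dependent kinase inhibitors and p53 pathway genes, 17 were above background (77.3%, against 55.3% of all genes). In the top 10% was 1 (4.55%, against 12.1% of all genes), the checkpoint kinase CHEK1 (10.15 and 9.99). The kinase ATR (10.02 and 9.85) and GADD45A (9.75 and 9.84) came next. At background were CDKN2B (4.40 and 4.59), MDM4 (4.52 and 4.32) and the p53 relative TP73 (4.46 and 4.30). CDKN1A, which encodes p21 and was chosen after its value was seen, gave 9.16 and 9.30 in these control cells.

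The genes known from myeloma translocations included, beside NSD2 and FGFR3, the factor MAF at 10.33 and 10.28, in the top 10%. The cyclins CCND3 (8.87 on both arrays) and CCND1 (8.86 and 8.78) were in the middle band, and CCND2 was split (6.18 and 6.07). LETM1 (7.43 and 7.39) and TACC3 (9.26 and 9.39), genes near FGFR3 and NSD2, were in the middle band. The other FGF receptors were lower in rank, FGFR1 weak (6.89 and 6.92) and FGFR2 (5.79 and 5.96) and FGFR4 (5.15 and 5.32) at background. MYCN (5.60 and 6.03) and MYCL (5.33 and 5.57) were at background too.

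Of 31 myeloma growth factor and receptor genes, 16 were above background (51.6%) and 4 were in the top 10% (12.9%), close to the shares of all genes (55.3% and 12.1%). After TNFRSF17, the chemokine receptor CCR1 gave 11.71 and 11.96, and IL6R, the receptor of the main myeloma growth factor, gave 11.11 and 10.68. Its ligand IL6 was at background (3.74 and 3.82), as were CCR2 (4.27 and 4.28) and ERBB3 (3.56 and 3.57). The signalling chain IL6ST, chosen after its values were seen, gave 10.54 and 9.77, a wider gap than the other members of this list above background.

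Chemokines and their receptors were above background in 6 of 53 symbols, and after CCR1 the highest were the receptor CCR10 (9.67 and 9.97) and the ligand CCL4 (7.20 and 7.91). CXCL6 (2.93 and 2.97), CXCL13 (2.82 and 3.06) and CXCL11 (2.88 and 2.96) were the lowest. Of 35 interleukin symbols, a pattern that also takes in receptors such as IL6R, 5 were above background. IL32 gave 8.94 and 9.27, and IL15 was weak (7.06 and 7.17). IL12B (mean 3.04), IL26 (2.89 and 2.90) and IL33 (2.96 and 2.76) were the lowest. Of 51 integrin and adhesion symbols, 17 were above background (33.3%, against 55.3% of all genes). In the top 10% were 7 (13.7%, close to the 12.1% of all genes). ITGB7 was first, the hyaluronan receptor CD44 next (12.10 and 11.86) and ITGB1 after it (11.29 and 11.33). ITGA4, the partner chain of both ITGB7 and ITGB1 and chosen after its values were seen, gave 11.10 and 11.25. CDH19 (3.13 and 3.25), ITGA1 (3.14 and 3.04) and CDH12 (3.05 and 3.10) were the lowest.

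Among BCL2 family members and caspases, 25 of 28 were above background (89.3%, against 55.3% of all genes). The share in the top 10% was 7.14%, against 12.1% of all genes. Only MCL1, the survival factor of plasma cells (12.17 and 12.25), and the ubiquitin ligase BIRC2 (10.42 and 10.52) were there. The TRAIL receptor TNFRSF10B gave 9.61 and 9.66. Of other anti-apoptotic members, chosen after their values were seen, BCL2L1 gave 7.81 and 7.59 and BCL2 was weak (6.52 and 6.30). HRK (5.84 and 5.96), BOK (5.69 and 5.95) and BCL2A1 (4.24 and 4.40) were at background.

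The NF-kappaB pathway had 16 of 22 genes above background (72.7%, against 55.3% of all genes), 6 of them weak. In the top 10% was 1, BIRC2 (4.55%, against 12.1% of all genes). After BIRC2 the highest were the inhibitor NFKBIA (9.02 and 9.29) and the kinase CHUK (8.70 and 8.45). MAP3K14, the kinase NIK (5.24 and 4.90), LTA (4.78 and 4.98) and TNF (4.15 and 3.99) were at background. Interferon-stimulated genes were above background in 13 of 29 (44.8%, against 55.3% of all genes), with 0 in the top 10%. The highest were the exonuclease ISG20 (9.90 and 10.07), the tetherin gene BST2 (9.96 and 9.89) and the factor IRF2 (9.17 and 9.36). GBP1 (3.79 and 4.03), IFI44L (3.66 and 3.42) and IFI44 (3.57 and 3.44) were the lowest.

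Cancer-testis antigens, normally restricted to germ cells, lay at separate levels. Of 26 symbols 12 were above background (46.2%, against 55.3% of all genes). In the top 10% were 8 (30.8%, against 12.1% of all genes). The other 14 were at or under the line, and no symbol was weak or split. MAGEA6 gave 12.71 and 12.58, CTAG2 11.71 and 11.63, and MAGEA12 11.53 and 11.56. Further members in the top 10%, chosen after their values were seen, were MAGEA4 (11.52 on both arrays), MAGEA1 (11.19 and 11.09), MAGEC1 (10.93 and 10.83) and SSX1 (10.58 and 10.93), and also LAGE3 (11.12 and 11.11), a relative with wide expression. MAGEC3 (3.41 and 3.27), MAGEA11 (3.36 and 3.29) and SAGE1 (3.19 and 3.39) were the lowest. Members of this family are close in sequence, and the probe sets of MAGEA6, CTAG2 and MAGEA12 have _x_at names.

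Of 30 genes of cereblon, glucocorticoid and epigenetic drug targets, 26 were above background (86.7%, against 55.3% of all genes). In the top 10% were 7 (23.3%, against 12.1% of all genes). The nuclear exporter XPO1, target of selinexor, gave 11.88 and 11.69. The deacetylase HDAC2 gave 11.19 and 11.10, and RBX1, a subunit of the ubiquitin ligase that cereblon serves, gave 11.02 and 10.99. Chosen after their values were seen, the glucocorticoid receptor NR3C1 gave 10.29 and 10.10 and CRBN, which encodes cereblon, gave 8.37 and 8.45. The drug exporters ABCG2 (6.05 and 5.90) and ABCB1 (3.30 and 3.21) and the cortisol-activating enzyme HSD11B1 (4.34 and 5.04) were at background.

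Markers of other cell types were mostly at background. Of 27 T and NK cell markers 24 were, among them CD3D (5.03 and 5.16), CD3E (5.78 and 5.93), CD3G (4.49 and 4.73) and CD2 (4.46 and 4.50), chosen after their values were seen, and the list's lowest, GZMK (mean 3.82), GZMA (3.68) and TRAT1 (3.24). The exceptions were CD28, a costimulatory receptor also known on myeloma cells (10.74 and 10.61), the T cell receptor constant gene TRBC1 (10.15 and 10.08) and GATA3 (7.53 and 7.52). Of 22 myeloid markers 20 were at background, down to ELANE (3.48), FCGR1A (3.21) and the lysozyme gene LYZ (3.06), with S100A9 at 5.90 and 5.98. The lectin CLEC7A was in the middle band (9.37 and 9.39), and CEBPA was split (6.14 and 6.01). TRBC1, GATA3 and CLEC7A were read by _s_at probe sets. Without _x_at and _s_at probe sets, 1 T and NK cell marker and 0 myeloid markers were above background.

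Of 14 erythroid and platelet markers 4 were above background: the globin genes HBD (9.61 and 10.17), HBB (8.17 and 8.38) and HBE1 (6.27 and 6.44) and the platelet glycoprotein GP9 (6.51 and 6.50). The erythroid regulators GATA1 (mean 5.56), TAL1 (5.59) and KLF1 (3.85), the haem enzyme ALAS2 (5.46), the globin chaperone AHSP (5.73), EPB42 (4.31) and the platelet genes PF4 (5.60), GP1BA (5.58), ITGA2B (5.19) and PPBP (3.10) were at background. Of 22 stromal and endothelial markers 4 were above it. They included VIM, an intermediate filament gene that blood cells share (13.17 and 13.19), PECAM1, which plasma cells also carry (8.79 and 8.77), and COL1A1 (7.32 and 7.30). KDR (3.38), POSTN (3.26) and LUM (2.70) were the lowest. HBB, GP9 and COL1A1 were read by _x_at probe sets and VIM by an _s_at probe set. Without such probe sets, 2 erythroid and platelet markers and 2 stromal and endothelial markers were above background.

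Of 18 epithelial markers, KRT18 alone was above background on both arrays (8.46 and 8.48), and MUC1 was split. KRT18 was read by an _x_at probe set. Without _x_at and _s_at probe sets, 0 epithelial markers were above background. The other 16 ran from ELF3 (mean 5.74), KRT8 (5.50), CLDN7 (5.45), KRT5 (5.05), CLDN3 (5.01), CLDN4 (4.80), KRT7 (4.51), ESRP1 (4.23) and CDH1 (4.14) to KRT19 (4.05), DSP (3.98), GRHL2 (3.67), KRT14 (3.56), OCLN (3.53), KRT20 (3.30) and EPCAM (3.27). The genes of other organs that set the line had 104 of 112 members at background, by construction close to the 95th percentile. The exceptions above it on both arrays were MB, which encodes myoglobin (10.10 and 11.20), KRT10 (10.16 and 10.17), PAX8 (7.69 and 7.88), GRIN1 (6.77 and 6.80), MBP (6.71 and 6.61) and SFTPC (6.26 and 6.30); GRIN1, MBP and SFTPC are named to complete this count, after their values were seen. RPE65 (2.66), SLC12A1 (2.80) and SI (2.84) were the lowest.

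Families were also formed without choosing members, by the letters of a symbol before its first digit. There were 155 families of 10 or more genes, and a shared stem does not make a shared function. MCM, for example, took in the antisense gene MCM3AP-AS1, and UBE the ubiquitin ligase UBE3B. In 7 of the 155 every gene was above background. These were the proteasome stems PSMB (10 genes) and PSMD (12), the complex I stem NDUFA (10) and MCM (10). UBE (24), the RNA-binding stem LSM (11) and the integrator stem INTS (11) were the others. EIF (42 of 43), WDR (31 of 32) and POLR (25 of 26) followed.

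At the other end, 7 families had no gene above the line. They were the kallikreins KLK (13 genes), the NK receptors KIR (14), ADAMTS (10), the potassium channels KCNJ (12), the interferons IFNA (11), the chemokines CXCL (12) and the bitter taste receptors TAS (10). Of the olfactory receptors OR, 2 of 47 were above it, the higher being the pseudogene OR7E37P (mean 9.13). FGF had 1 of 19 above it and CDH 1 of 18. Zinc finger genes with a ZNF symbol, chosen after their values were seen, had 108 of 235 above background and 5 in the top 10%.

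Choice of probe set mattered for single genes. Of 4310 genes with more than 1 probe set, the range of their means had a median of 1.43 log2 units, and 1399 (32.5%) had probe sets on both sides of the background line. The widest ranges were in RPS6 (from 3.89 to 13.99), RPL35A (3.42 to 13.24), RPS14 (4.46 to 14.03), GNAS (3.59 to 13.04) and EIF3F (3.08 to 12.50). Genes with 1 probe set were above background in 47.7% of cases and genes with 2 in 66.1%. A gene is represented by its highest probe set, so the number of probe sets itself can raise this share, and its part in the difference was not tested.

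Promoter composition differed between the bands as a description of these gene sets. The ratio of CpG observed over expected, which is high in CpG islands, had a median of 0.88 in the 1218 promoters of top 10% genes and 0.59 in the 3807 of genes at background. The 84 promoters of the genes of other organs had a median of 0.21. TATAAA, the core of the TATA box, was found on either strand in 6.81% of top 10% promoters, 13.2% of those at background, and 33 of the 84 (39.3%), against 12% of all 27305 promoters. GGGCGG, the GC box, was in 69.5%, 49.3% and 21.4% of the same sets and in 44.6% of all. The 27305 promoters include those of genes not measured here, beside the 9562 measured genes. They are therefore not the base for measured genes, and the bands are to be compared with each other. In the middle and weak bands TATAAA was in 4.11% and 5.38% and GGGCGG in 73.9% and 71.8%. Neither share thus followed the order of the bands.

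**Figure D4:**
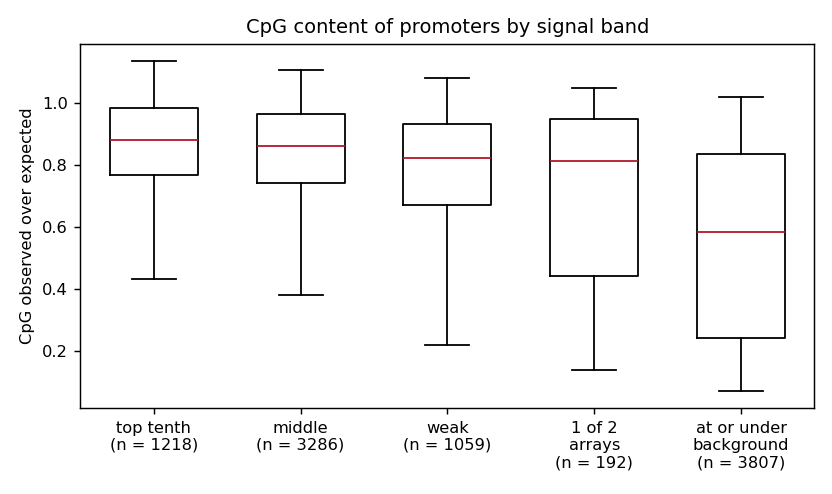
Ratio of CpG observed over expected (y axis) in RefSeq promoters of genes in each signal band (x axis, number of promoters in brackets); boxes span the quartiles around the median, and whiskers run from the 5th to the 95th percentile. The median is 0.88 in the top 10% and 0.59 in genes at or under background, whose box reaches lower.

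Motif shares also varied between lists. CCAAT, which is contained in the ER stress element, was in 22 of 26 ER chaperone promoters (84.6%) and 23 of 32 mitosis promoters (71.9%), against 35.7% of all. TGACGTGG, a form of the site that XBP1 is known to bind, was in 8 of 40 promoters of the translocon and transport list (20%) and in 0.795% of all. Its first 6 letters are shared with TGACGTCA, the cyclic AMP element, which was in 0 of those 40 and in 1.98% of all. A pair of GAAA runs with any 2 bases between them, a core of the interferon response element, was in 15 of 20 promoters of interferon-stimulated genes (75%), a list with 16 of 29 genes at background here, and in 3.65% of all. CTTTCC, a pyrimidine run, was in 21 of 49 promoters of ribosomal protein genes (42.9%) and in 26.3% of all, but also in 40% of those of interferon-stimulated genes and 36.4% of those of cancer-testis antigens. Shares of all are again over the 27305 promoters, which include genes not measured here. No factor was measured at these sites.

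Among genes above background, 51 were over 0.5 log2 units higher on replicate 1 and 62 on replicate 2. The widest gaps were in STS (7.64 and 9.41), the immediate early factor EGR1 (7.13 and 8.57), HMOX1, the haem oxygenase (11.995 and 10.60), and BNIP3L (9.09 and 10.35). They were followed by DTNB-AS1 (1.21 higher on replicate 2), BHLHE40 (1.10 higher), MB (10.10 and 11.20), the collagen hydroxylase P4HA1 (9.70 and 10.80), TXNIP (8.73 and 9.77) and BNIP3 (10.03 and 11.07). All but HMOX1 were higher on replicate 2. BNIP3, BNIP3L, P4HA1 and BHLHE40 are known to respond to low oxygen. Glycolysis genes had 15 of 18 higher on replicate 2, with a median gap of 0.16, where all genes above background had a median gap of -0.01 and 3194 of 6614 were higher there. Some other lists, named after their values were seen, leaned the same way. MHC class I did in 13 of 16 genes (median gap 0.12) and interferon-stimulated genes in 9 of 13 (0.14). Mitosis did in 30 of 40 (0.10) and DNA replication in 32 of 46 (0.08). Other lists leaned to replicate 1. Cyclin-dependent kinase inhibitors and p53 pathway genes had 7 of 17 higher on replicate 2 (median gap -0.10). Plasma cell transcription factors had 5 of 12 (-0.05) and the drug targets 10 of 26 (-0.04).

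**Figure D5:**
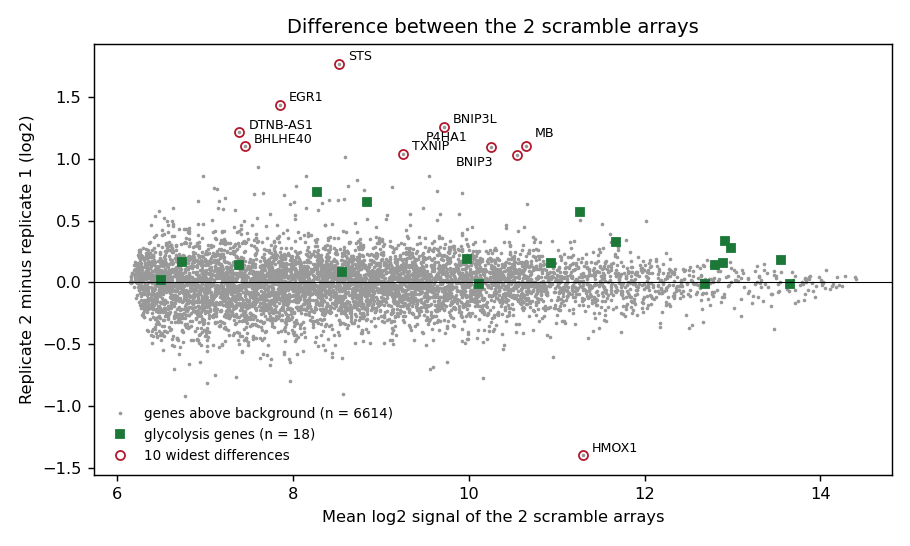
Difference in log2 signal between the scramble replicates (y axis, replicate 2 minus replicate 1) against their mean (x axis) for the 6614 genes above background, with glycolysis genes (squares) and the 10 widest differences (open circles, named) marked. HMOX1 lies at -1.40 and the other 9 between 1.03 and 1.77, and 15 of the 18 glycolysis genes lie above 0.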

How the data were processed

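RNA of each sample was copied into biotin-labelled cRNA and hybridised to an Affymetrix array, per the labels' protocols. The deposited values are log2 signals per probe set, already on a common scale. The authors' way of summarising and normalizing them was not given in the sources used here. Base 2 was inferred: as a natural logarithm, the largest value would stand for a signal of 1831210. Of the 22277 probe sets, the platform annotation gave 1 gene symbol to 19070, several to 1043 (not used for names) and no symbol to 2164. Gene IDs of 19058 matched RefSeq (GRCh38.p14), which changed 0 symbols.

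Bands, lists and percentiles were computed in Python 3.11.15 with pandas 2.3.3. Only the band calls were tested on simulated data, in which expressed and silent genes were set at separate levels. That test does not bear on genes near the background line. A percentile is the share of probe sets with a lower mean. There is no test and no p-value, because there is no contrast, and 2 arrays limit the precision. Named genes are the 25 highest, the 5 markers, the 3 highest and 3 lowest of each of the 33 lists (all members of lists of up to 20), genes beside the 2 lines, the 10 widest array gaps, the 10 highest and lowest families and the 5 widest probe set ranges. Others are marked. Members and lists were chosen with earlier results of these data known. Features of proteins were not analysed here.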

Additional observations from a re-analysis of the deposited data

How the results depend on the processing

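No paired analysis was possible because the results come from no test and from 1 group of 2 arrays. With single arrays, 6726 genes (without replicate 1) and 6744 (without replicate 2) were above background, and 25 and 22 of the 25 leading genes were shared. Across the other settings 6024 (median of a gene's probe sets, with 17 of the 25 leading genes shared) to 7781 (line at the 40th percentile of all probe sets) were above it, except in the cases that follow. Centring the arrays on their medians left 6614, an outcome fixed in advance because each array's line shifts with its values. Leaving MB and KRT10 out of the reference, which was chosen after seeing the data, gave 6958.

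Without _x_at and _s_at probe sets, which left 8371 genes, 3872 were above background, 682 were in the top 10%, 379 list members were above it and 2 of the 25 leading genes stayed. FGFR3 and NSD2 have no other probe sets and so no value there. The top of the ranking thus rests on probe sets that can bind several transcripts. A line at the 99th percentile of the reference, 10.11, close to the KRT10 signal, left 1309 genes above and 10512 under it, with 356 list members above. FGFR3 was then under the line, at -0.68, and the other 4 markers over it. Under that line 25 of 32 lists moved by over 1.5 times, without _x_at and _s_at probe sets 24, and under every other setting at most 8. Signal against background is known only through this reference, so weak and split genes are the least certain.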

Other observations

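Probe sets without a single gene name also reached the top 10%. Of its 2228 probe sets 190 had several symbols and 153 had none listed, 18 of these array controls. Array controls aside, the highest probe set with no symbol listed gave 14.18 and 14.19 and ranked 13th of all probe sets.

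Further genes known to be induced by low oxygen were looked up after the widest array gaps were seen, because BNIP3, BNIP3L, P4HA1 and BHLHE40 were among those gaps. Of 21 such genes above background, 18 were higher on replicate 2 and 3 were lower. Among all genes above background, 3194 of 6614 were higher there. The count of 18 includes the genes that prompted the search, so it restates them in part. Other members higher on replicate 2 included PLOD2, a collagen-modifying enzyme (7.64 and 8.42), and the histone demethylase KDM3A (8.43 and 9.18). NDRG1 (9.56 and 10.28), ALDOC (7.91 and 8.64) and EGLN1 (7.85 and 8.26) were higher there too. The arrays were close for VEGFA (9.20 and 9.21), HILPDA (7.23 and 7.24) and HK2 (10.12 and 10.10). PDK1 (9.61 and 9.48) and PFKFB3 (7.35 and 6.84) were lower on replicate 2. What set the replicates apart was not tested.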
